A study of Mus musculus with 11 samples.

Results

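The genes described here are 4 members of the Reg family, Reg3a, Reg3b, Reg3g and Reg4, which encode secreted C-type lectins of the intestinal lining. They were taken by gene symbol, and all 4 were found among the 31168 named genes of the count table. All 4 also stood among the 15911 genes with enough counts to be tested. The RNA came from the distal ileum of mice treated with dextran sodium sulfate, a polysaccharide that injures the intestinal epithelium. The 5 dIEC mice had the genotype H2-Ab1 fl/fl; Villin:Cre+, and the 6 WT mice had H2-Ab1 fl/fl; Villin:Cre-. Both groups thus carried floxed H2-Ab1, the gene of an MHC class II beta chain, and both received the treatment, with no untreated mice analysed here. The villin promoter drives the Cre recombinase in intestinal epithelial cells, whereas the RNA was of whole tissue. The comparison asks how Reg gene RNA differs in the ileum when the epithelium carries this Cre. In the design text of the series both genotypes read Villin:Cre-, so samples were assigned by their own genotype labels.

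Reg3b and Reg3g are among the most abundant antimicrobial products of the mouse ileum and are made by enterocytes and Paneth cells. Reg3g binds peptidoglycan and kills Gram-positive bacteria, while Reg3b acts mainly on Gram-negative bacteria. Their transcription in epithelium is induced by interleukin-22 through STAT3 and by bacterial signals through MyD88. Reg4 is a more distant relative, known from enteroendocrine and other secretory cells of the mouse intestine.

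The 3 Reg3 genes lie together on chromosome 6, and Reg4 lies on chromosome 3 (GRCm38, GENCODE vM21 annotation). Reg3b spans chr6:78370657-78373466 on the plus strand, Reg3a spans chr6:78380709-78383827 on the plus strand, and Reg3g spans chr6:78466269-78468872 on the minus strand. These 98.2 kb hold 6 genes, all of them protein-coding Reg genes, in the order Reg3b, Reg3d, Reg3a, Reg2, Reg1 and Reg3g. Reg4 spans chr3:98222156-98236748 on the plus strand. No other annotated gene overlaps any of the 4. Their proteins have 175 amino acids for Reg3a and Reg3b, 174 for Reg3g and 157 for Reg4.

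Reg3b and Reg3g were the closest pair, with 75.9% of aligned coding bases identical. Reg3a shared 73.8% with Reg3b and 72.9% with Reg3g, and Reg4 shared 49.7 to 50.6% with the other 3. The longest stretch shared exactly by the Reg3b and Reg3g transcripts was 35 bases of coding sequence near the start of each reading frame. It is shown because a read inside it cannot be assigned to either gene alone, with the shared bases in capitals and 10 flanking bases on each side in lower case, 5′ to 3′ on the coding strand.
Reg3b: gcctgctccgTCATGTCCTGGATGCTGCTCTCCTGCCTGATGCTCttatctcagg
Reg3g: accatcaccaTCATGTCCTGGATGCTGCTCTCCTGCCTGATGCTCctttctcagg
Reg3a shared at most 24 bases in a row with Reg3b and with Reg3g, and Reg4 at most 13 with any of the other 3. How reads with several positions were counted is not given in the sources used here, so counts of the Reg3 genes carry that uncertainty. It weighs most on Reg3a, whose counts were 0.00259 to 0.0077 of those of Reg3b.

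Because Reg3b and Reg3g varied together across libraries, as described below, the 250 bases before each start site are shown (RefSeq, GRCm38.p6, 5′ to 3′ on the strand of the gene). Capitals mark the 3 runs of at least 8 bases that are identical in an alignment of both, 40 bases in all, of which the longest run has 20. The Reg3b stretch is chr6:78370635-78370884 on the plus strand, most of which overlaps the GENCODE span because RefSeq places the start further downstream. The Reg3g stretch is chr6:78468875-78469124 on the minus strand.
Reg3b: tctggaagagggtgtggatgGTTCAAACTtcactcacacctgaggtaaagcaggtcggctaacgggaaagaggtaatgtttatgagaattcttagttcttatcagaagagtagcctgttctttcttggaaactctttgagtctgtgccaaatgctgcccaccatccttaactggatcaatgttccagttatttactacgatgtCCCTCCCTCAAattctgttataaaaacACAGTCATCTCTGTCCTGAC
Reg3g: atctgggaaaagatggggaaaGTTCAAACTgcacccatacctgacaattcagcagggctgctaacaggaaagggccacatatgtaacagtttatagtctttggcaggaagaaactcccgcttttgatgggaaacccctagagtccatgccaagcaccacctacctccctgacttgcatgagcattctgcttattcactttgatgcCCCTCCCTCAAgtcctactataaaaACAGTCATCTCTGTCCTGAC
These stretches had 68.4% of aligned bases in common. The other pairs of members had 43.9 to 47.2% in common. The letters TTCNNNGAA, a palindromic form of the STAT binding motif that reads the same on both strands, occurred in the Reg3b stretch as TTCTTGGAA, 129 bases before the start site. They were absent from the same stretch of Reg3a, Reg3g and Reg4, and 7.0% of 32851 promoters of this length held them. A match of letters is a description and was not linked to binding.

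The libraries held 6603965 to 9681698 counts, of which ribosomal RNA took 39.7 to 57% in dIEC and 37 to 53.1% in WT, and protein-coding genes other than Lars2 kept 1510296 to 3215574. H2-Ab1 ranged over 16.8 to 39.2 CPM in dIEC, against 47.5 to 112 CPM in WT, with no overlap (two-sided exact permutation p = 0.00433, the smallest that the splits of 5 and 6 libraries allow). CPM are counts per 1000000 counts of a library, with library totals scaled by TMM factors. As the samples were bulk tissue, fewer cells of a type and less RNA per cell cannot be told apart. The summed level of 30 absorptive enterocyte markers ran over 6159.6 to 14143 CPM in dIEC and 4147 to 15538 CPM in WT, with WT replicate 8 the highest of all 11 libraries.

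Reg3b was the most abundant of the 4 genes. It reached 8517, 2331, 2418, 2721 and 5525 CPM in dIEC replicates 1, 3, 5, 6 and 11. In WT it ranged over 576 CPM in replicate 7, a median of 1302 CPM and 4610 CPM in replicate 8. All 5 dIEC libraries lay above the WT median and 4 of 6 WT libraries lay below every dIEC library, but WT replicates 8 and 9 reached into the dIEC range. Only dIEC replicates 1 and 11 exceeded WT replicate 8.

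Reg3g followed nearly the same order of libraries at a lower level. It reached 6050.1, 1266, 1404, 1695 and 3202 CPM in dIEC replicates 1, 3, 5, 6 and 11. In WT it ranged over 263 CPM in replicate 7, a median of 762 CPM and 3072 CPM in replicate 8. As for Reg3b, dIEC replicates 1 and 11 stood above all WT libraries, and the 3 other dIEC libraries lay within the WT range.

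Reg3a, a paralog of Reg3b in the same chromosome 6 cluster, was far less abundant. It reached 50.6, 6.29, 6.31, 8.23 and 34.2 CPM in dIEC replicates 1, 3, 5, 6 and 11. In WT it ranged over 3.03 CPM in replicate 4, a median of 5.11 CPM and 11.9 CPM in replicate 8. Here too only dIEC replicates 1 and 11 lay outside the WT range, and the WT maximum was again replicate 8. The counts behind these values were 28 to 350 per library, against 5193 to 58945 for Reg3b.

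Reg4 had a different order of libraries. It reached 4.48, 39.5, 48.9, 20.6 and 17 CPM in dIEC replicates 1, 3, 5, 6 and 11. In WT it ranged over 14.3 CPM in replicate 8, a median of 47.1 CPM and 60.8 CPM in replicate 7. The groups overlapped, with 1 of 5 dIEC libraries above the WT median and only dIEC replicate 1 below all WT libraries. The libraries with the most Reg3b in each group, dIEC replicate 1 and WT replicate 8, had the least Reg4 of their group.

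**Figure D1:**
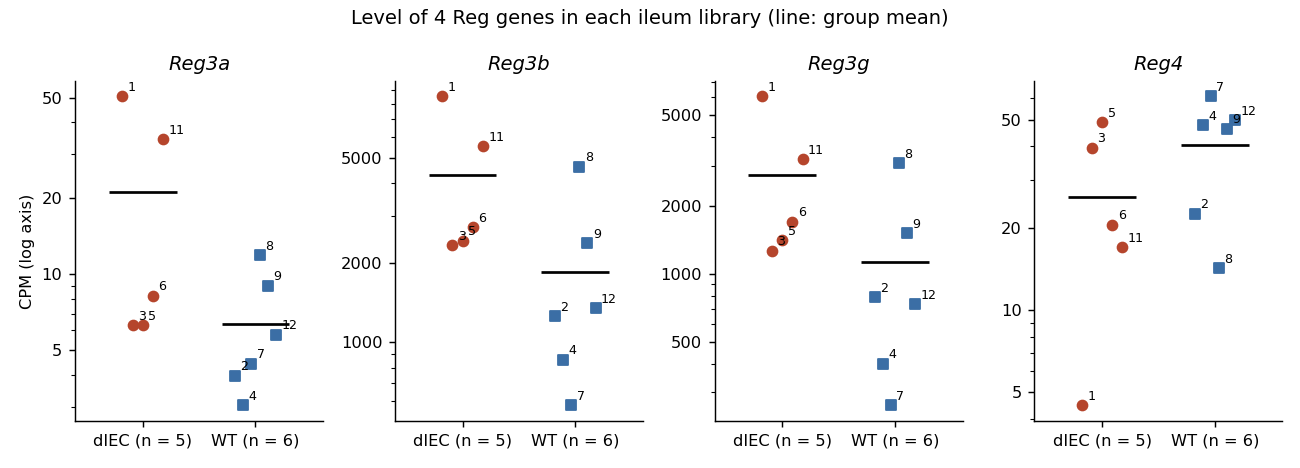
Level of each Reg gene in CPM (log axis) in the 5 dIEC and 6 WT ileum libraries, with the replicate number beside each point and a line at the group mean. For the 3 Reg3 genes dIEC replicates 1 and 11 lie above all WT libraries and WT replicate 8 is the highest of its group, while for Reg4 dIEC replicate 1 is the lowest library at 4.48 CPM.

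Per kilobase of transcript, Reg3b averaged 5495 CPM per kb in dIEC and 2346 CPM per kb in WT, and Reg3g averaged 3532 CPM per kb in dIEC and 1464 CPM per kb in WT. Reg3b stood above Reg3g on this scale in 5 of 5 dIEC and 6 of 6 WT libraries, by 1.39 to 1.81 times in dIEC and 1.48 to 2.15 times in WT. Reg3a averaged 25.6 ± 24.6 CPM per kb in dIEC and 7.71 ± 4.17 CPM per kb in WT (SD, n = 5 and 6), and Reg4 averaged 25.5 ± 17.5 CPM per kb in dIEC and 39.4 ± 17.5 CPM per kb in WT. The order of this lower pair was not fixed, since Reg4 exceeded Reg3a in 3 of 5 dIEC and 5 of 6 WT libraries. Reg3b and Reg3g together made up 1.11 to 4.23% of protein-coding counts in dIEC and 0.297 to 2.23% in WT. The extremes were dIEC replicate 1, at 4.23% (95% exact binomial interval 4.21 to 4.26, counting error only), and WT replicate 7, at 0.297% (0.29 to 0.304). Reg3b ranked between 1 and 5 among coding genes in dIEC libraries and between 1 and 31 in WT libraries.

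None of the 4 genes passed edgeR's quasi-likelihood test at an adjusted p under 0.05, a threshold that 0.00628% of the 15911 genes tested passed, nor did DESeq2 or limma-voom call any of them. Reg3b averaged 4302 ± 2701 CPM in dIEC and 1837 ± 1490.5 CPM in WT (SD, n = 5 and 6), a log2 fold change of 1.23 ± 0.52 (SE; 95% interval 0.21 to 2.25; edgeR adjusted p = 0.443). Reg3g averaged 2724 ± 2014 CPM in dIEC and 1129 ± 1046 CPM in WT, a log2 fold change of 1.27 ± 0.61 (0.08 to 2.46; edgeR adjusted p = 0.471). The unadjusted edgeR p of Reg3g was 0.0556, although its interval leaves out 0. The 2.34-fold and 2.41-fold higher levels of these lectins in dIEC stood beside a wide spread within the groups. Reg3a averaged 21.1 ± 20.3 CPM in dIEC and 6.36 ± 3.44 CPM in WT, a log2 fold change of 1.74 ± 0.61 (0.55 to 2.93; edgeR adjusted p = 0.427). Reg4 averaged 26.1 ± 17.9 CPM in dIEC and 40.3 ± 17.8 CPM in WT, a log2 fold change of -0.64 ± 0.51 (-1.64 to 0.37; edgeR adjusted p = 0.643). These 95% intervals are normal approximations from the SE and are narrower than the F test with few libraries would give. An interval that leaves out 0 is therefore not a call. Before adjustment 2 of the 4, Reg3a and Reg3b, had an edgeR p under 0.05 with a higher level in dIEC, which 4.87% of all genes tested also had. The share of genes lower in dIEC by the same measure was 5.79%, to which no member belonged, and 10.7% of genes had such a p in either direction. The fold change of Reg3b was reached or exceeded by 0.277% of all genes tested. That share counts Reg3b itself, Reg3a, Reg3g and Reg3d of the same cluster, and it takes no account of the spread between libraries. None of the 4 genes separated the groups completely, whereas 0.233% of all genes had every dIEC library above every WT library and 0.333% had every dIEC library below. Without dIEC replicate 1 the log2 fold changes were 1.13 for Reg3a, 0.82 for Reg3b and 0.75 for Reg3g, and without WT replicate 8 they were 2 for Reg3a, 1.75 for Reg3b and 1.88 for Reg3g. For Reg4 the log2 fold change was -0.37 without dIEC replicate 1 and -0.81 without WT replicate 8. None of these had an adjusted p under 0.05.

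The permutation test on mean log2 CPM, made for each gene alone and unadjusted over the 4 tests, gave differences of dIEC minus WT of 1.28 for Reg3a (exact p = 0.108), 1.47 for Reg3g (exact p = 0.0779) and -0.85 for Reg4 (exact p = 0.212). The Reg4 difference was -0.325 without dIEC replicate 1 (exact permutation p = 0.467). For Reg3b the difference was 1.37, and its exact p was 0.0433 when the smaller tail was doubled and 0.0519 when splits were counted by absolute difference. The first of these conventions was adopted after both outputs had been seen, and no call rests on it.

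The 4 genes varied between libraries of the same group more than most genes did. The biological coefficient of variation estimated by edgeR was 66.2% for Reg3a, 56% for Reg3b, 65.6% for Reg3g and 58% for Reg4, against a median of 16.2% over all genes tested. Among all genes tested these estimates lay at percentile 99.5 for Reg3a and Reg3g, 99.2 for Reg3b and 99.3 for Reg4. Within groups, Reg3b spanned 3.65-fold in dIEC and 8.01-fold in WT, and Reg3g spanned 4.78-fold in dIEC and 11.7-fold in WT. Reg4 spanned 10.9-fold in dIEC and 4.24-fold in WT.

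**Figure D2:**
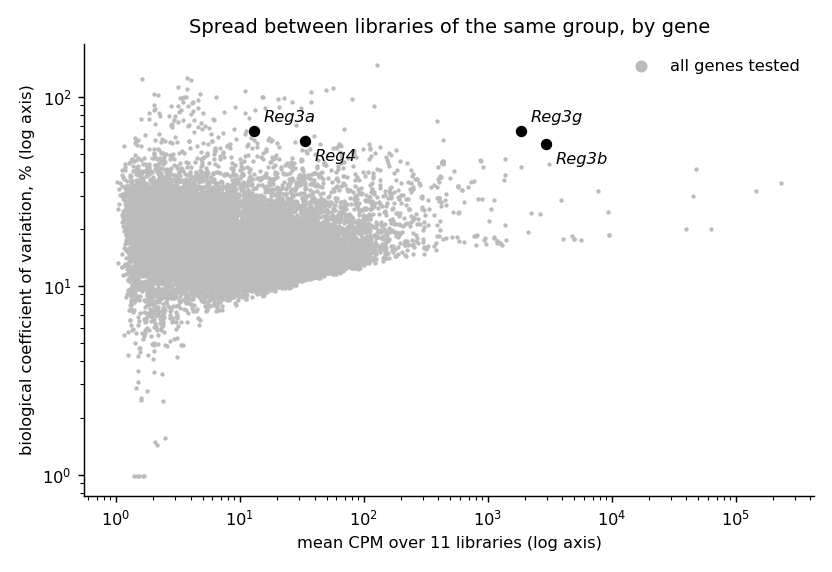
Biological coefficient of variation in percent (log axis) against mean CPM over the 11 libraries (log axis) for all 15911 genes tested in grey, with the 4 Reg genes in black. The Reg genes lie at 56 to 66.2%, above a median of 16.2%, with Reg3g and Reg3b among the most abundant genes.

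Reg3b and Reg3g varied together between libraries. Their log2 CPM correlated at Pearson r = 0.996 and Spearman rho = 0.98 over 11 libraries (permutation p = 1e-05 for each, the smallest that 100000 resamples give; 6e-05 adjusted over the 6 pairs). The r was 0.992 without WT replicate 7 and dIEC replicate 1 and 0.996 within the 6 WT libraries. The count of Reg3b over that of Reg3g ran over 1.41 to 1.84 in dIEC and 1.5 to 2.19 in WT, a log2 difference of -0.11 (two-sided exact permutation p = 0.403, 0.604 adjusted over 6 ratios). This ratio spanned 1.55-fold over all libraries.

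Reg3a varied with both of them, though less tightly. Its r was 0.9 with Reg3b (rho = 0.95; permutation p = 6e-05 for r and 5e-05 for rho, adjusted 0.00018 and 0.00014) and 0.88 with Reg3g (rho = 0.95; permutation p = 0.0002 and 7e-05, adjusted 0.0004 and 0.00014). Without dIEC replicates 1 and 11 both r values were 0.87, and within the 6 WT libraries they were 0.88 with Reg3b and 0.87 with Reg3g. The ratio of Reg3a to Reg3b spanned 2.97-fold over the libraries and that of Reg3a to Reg3g 4.33-fold. These ratios differed between groups by -0.06 and -0.17 on the log2 scale (two-sided exact permutation p = 0.887 and 0.727, adjusted 0.887 and 0.873).

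Reg4 ran opposite to the Reg3 genes over the 11 libraries. Its r with Reg3b was -0.81 (rho = -0.8; permutation p = 0.002 and 0.0045, adjusted 0.00238 and 0.00541). With Reg3g the r was -0.82 (rho = -0.86; permutation p = 0.0013 and 0.001, adjusted 0.00198 and 0.00156), and with Reg3a it was -0.81 (rho = -0.71; permutation p = 0.0033 and 0.018, adjusted 0.00327 and 0.0179). These relations lean on dIEC replicate 1 and WT replicate 8, the libraries farthest from the Reg4 median. Without them the r over the 9 other libraries was -0.64 with Reg3b (exact permutation p = 0.0681), -0.66 with Reg3g (exact p = 0.0558) and -0.59 with Reg3a (exact p = 0.075), so the relation no longer held at 0.05. Within the 6 WT libraries it was -0.73 with Reg3b (exact permutation p = 0.0889), -0.75 with Reg3g (exact p = 0.0903) and -0.48 with Reg3a (exact p = 0.315). By rank, rho within WT was -0.71 with Reg3b (exact permutation p = 0.136), -0.89 with Reg3g (exact p = 0.0333) and -0.37 with Reg3a (exact p = 0.497). These p-values within WT are unadjusted. The 5 dIEC libraries are too few for a correlation of their own. With group means removed the r values of Reg4 were -0.78, -0.79 and -0.77 with Reg3b, Reg3g and Reg3a. The ratio of Reg4 to Reg3b spanned 201-fold over the libraries, and its log2 difference between groups was -2.22 (two-sided exact permutation p = 0.0952, adjusted 0.268). Without dIEC replicate 1 this difference was -1.39 (exact permutation p adjusted over the 6 ratios = 0.59).

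**Figure D3:**
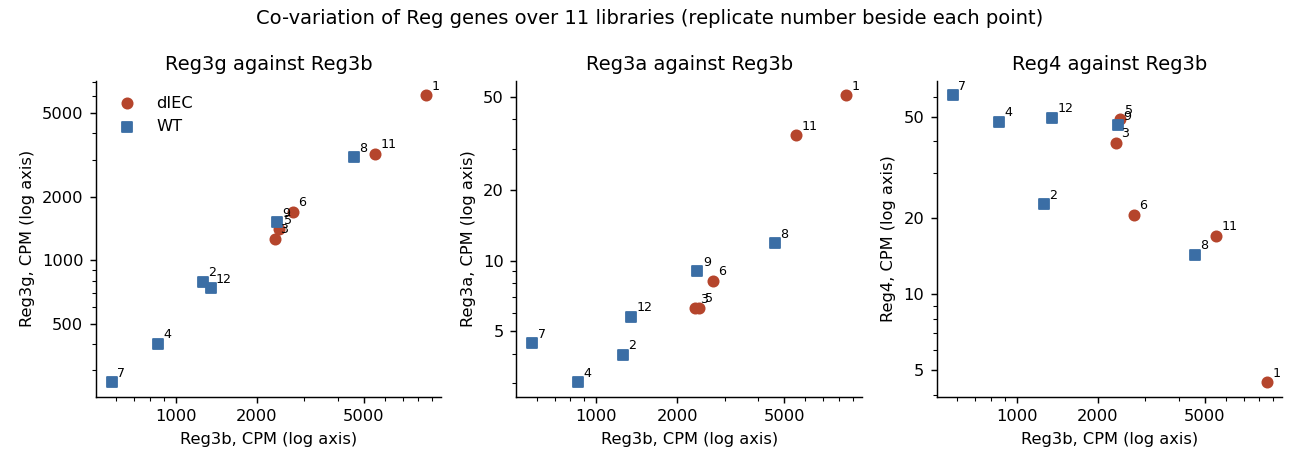
Reg3g, Reg3a and Reg4 against Reg3b in CPM (log axes), with a point for each of the 5 dIEC and 6 WT libraries and its replicate number. Reg3g lies along a single line with Reg3b (r = 0.996), and Reg4 is lowest in the libraries with the most Reg3b, dIEC replicates 1 and 11 and WT replicate 8.

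The 3 other Reg genes of the chromosome 6 cluster had few counts in most libraries. Reg3d averaged 5.83 ± 8.4 CPM in dIEC and 1.87 ± 2.74 CPM in WT (SD, n = 5 and 6; log2 fold change 1.54 ± 0.91, edgeR adjusted p = 0.541). Its highest libraries were dIEC replicate 1, at 20.8 CPM, and WT replicate 9, at 7.42 CPM. Reg1 averaged 1.47 ± 0.971 CPM in dIEC and 1.43 ± 1.38 CPM in WT (log2 fold change -0.02, edgeR adjusted p = 0.992), and Reg2 had too few counts to be tested.

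For each member, the 5 genes with the most similar log2 CPM over the 11 libraries were taken from 7162 genes of sufficient level, by Pearson r and without a test. Reg3b was most like Slc3a2, a subunit of amino acid transporters, Slc51b, a subunit of the basolateral bile acid exporter, Gdpd1, Mvp, the major vault protein, and Gmds, an enzyme of GDP-fucose synthesis (r = 0.96 to 0.97). The genes most like Reg3g were Slc3a2, Gmds, Mvp, Slc51b and Cdipt, the phosphatidylinositol synthase (r = 0.95 to 0.96). Those most like Reg3a were Serinc3, Mal2, Cnbd2, Baiap2l1 and Lypd8, the last encoding a secreted protein that keeps flagellated bacteria off the epithelium (r = 0.94 to 0.97). Slc51b ran over 32.4 to 75.9 CPM in dIEC and 13.3 to 50 CPM in WT, and Lypd8 over 456 to 1832 CPM in dIEC and 393 to 707 CPM in WT. Reg4 was most like Pank2, Fam53c, Gsdmc3, Gsdmc2 and Tagln2 (r = 0.91 to 0.95). Gsdmc2, of the gasdermin C family, ran over 0.578 to 61.6 CPM in dIEC and 4.25 to 188 CPM in WT, with the lowest value in dIEC replicate 1, as for Reg4. These likenesses share the same libraries, and their dependence on single libraries was not tested.

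**Figure D4:**
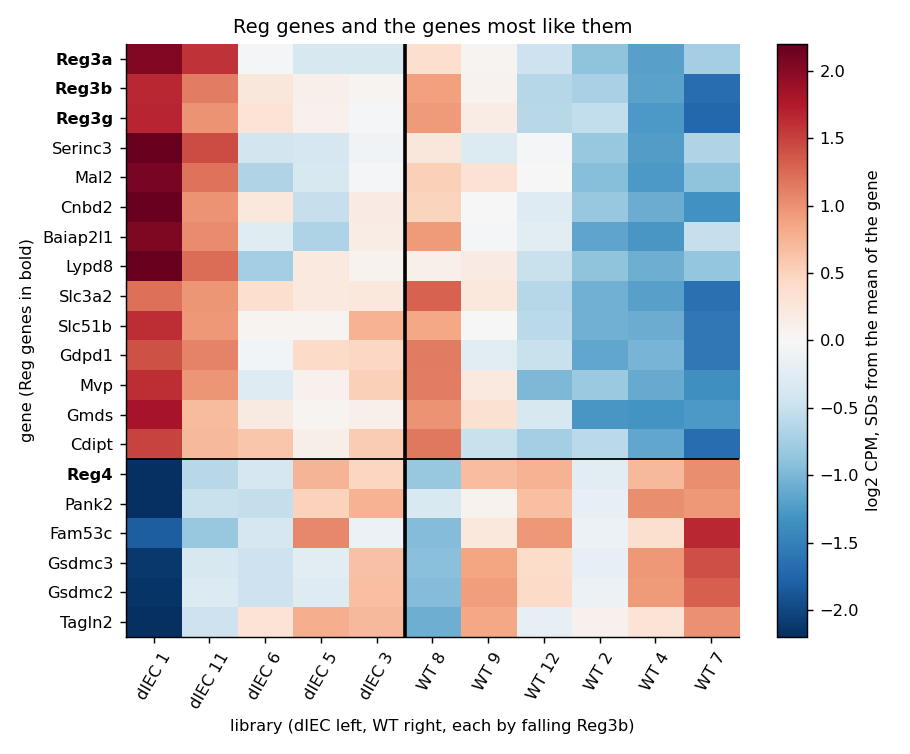
Log2 CPM of the 4 Reg genes (bold) and of the genes most like them, as standard deviations from the mean of each gene, in the 5 dIEC and 6 WT libraries ordered by falling Reg3b within each group. The genes above the line follow the Reg3 genes, high in dIEC replicates 1 and 11 and mostly also in WT replicate 8. Those below it follow Reg4, lowest in dIEC replicate 1.

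The upstream genes of Reg3 induction were described from lists. By edgeR's adjusted p, 0 genes of these lists were called, and limma-voom also called 0, while DESeq2 called Socs3 alone. Of 12 inducing cytokines only 3 had enough counts to test, and Il22, the main inducer, had 4 counts over all libraries. Of 22 cytokine receptors and STAT3 pathway genes, all were tested and 16 lay above 0 in log2 fold change, with a median of 0.13. Over all genes tested, 7767 of 15911 lay above 0 and 8144 below, with a median of -0.01. At an unadjusted edgeR p under 0.05, 6 of the 22 were higher in dIEC and 0 lower, against 4.87% higher and 5.79% lower over all genes tested. Socs3, a feedback inhibitor induced by STAT3, averaged 28.5 ± 16 CPM in dIEC and 9 ± 4 CPM in WT (log2 fold change 1.64 ± 0.41, edgeR adjusted p = 0.427). Stat3 averaged 81.1 ± 8.99 CPM in dIEC and 63 ± 10.6 CPM in WT (log2 fold change 0.36 ± 0.13, edgeR adjusted p = 0.427). The interleukin-22 receptor gene Il22ra1 averaged 30 ± 11.5 CPM in dIEC and 24.9 ± 9.87 CPM in WT (log2 fold change 0.28 ± 0.28, edgeR adjusted p = 0.728). Of 18 genes of bacterial sensing through MyD88, 17 were tested and 12 lay above 0, with a median of 0.16, and unadjusted 2 were higher and 1 lower. Myd88 itself averaged 10.7 ± 1.67 CPM in dIEC and 8.93 ± 1.81 CPM in WT (log2 fold change 0.25 ± 0.16, edgeR adjusted p = 0.555).

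Of 23 other inducible antimicrobial genes of the epithelium, 18 were tested, 15 lay above 0 and the median log2 fold change was 0.62. None was called by edgeR, DESeq2 or limma-voom, and at an unadjusted edgeR p under 0.05, 5 were higher in dIEC and 0 lower. The shares over all genes tested were 4.87% higher and 5.79% lower, and 7767 of 15911 genes lay above 0. Fut2, a fucosyltransferase, had a log2 fold change of 1.62 ± 0.53 (edgeR adjusted p = 0.427), and Lcn2, lipocalin 2, which binds bacterial siderophores, had 1.55 ± 0.68 (edgeR adjusted p = 0.449). Lcn2 had only 224 counts over all libraries. It averaged 4.4 ± 5.98 CPM in dIEC, over 0.898 to 15 CPM, and 1.49 ± 0.487 CPM in WT, over 0.887 to 2.09 CPM. The SD in dIEC thus exceeded the mean. Saa1, a serum amyloid A gene, had a log2 fold change of 1.24 ± 0.83 (edgeR adjusted p = 0.584) and correlated with Reg3b at r = 0.95 over the 11 libraries. The same list held genes that did not share this pattern, such as Ang4 at -0.02 and Itln1 at -0.13, both products of Paneth and goblet cells. Ang4 correlated with Reg4 at r = 0.82 and with Reg3b at r = -0.45. Over the 18 tested genes the median r with Reg3b was 0.56, with 15 above 0, and Saa1 was the highest. The exceptions did not follow cell type alone. Duox2, on neither the Paneth nor the goblet cell list, had r = 0.24 with Reg3b, and the goblet cell marker Zg16 had 0.7.

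**Figure D5:**
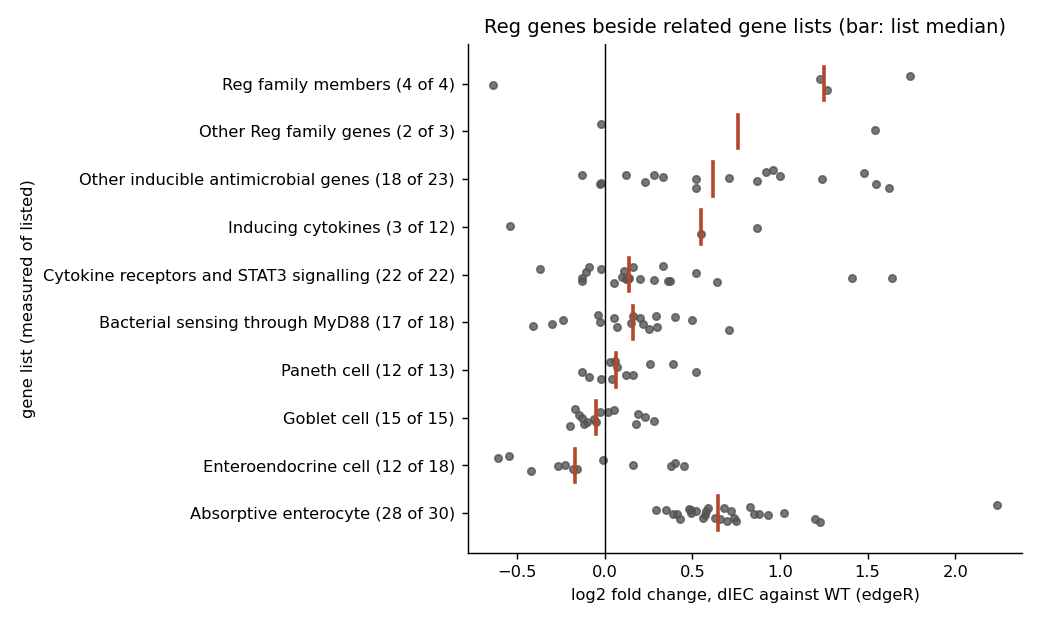
Log2 fold change of each tested gene, dIEC against WT, in the Reg family and in related gene lists (measured of listed genes beside each name), with a bar at the list median. Absorptive enterocyte genes have a median of 0.65 and the other inducible antimicrobial genes 0.62, while Paneth and goblet cell lists lie near 0.

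Markers of cell types varied with the Reg genes across libraries. All 28 tested absorptive enterocyte markers correlated above 0 with Reg3b, as did all 15 epithelial content genes, against 48% of all genes. Of the crypt stem and proliferating cell markers 0 of 12 did so, of the smooth muscle markers 0 of 10 and of the fibroblast markers 0 of 10. Among Paneth cell markers 4 of 12 correlated above 0 with Reg3b, and among goblet cell markers 5 of 15. With Reg4 the picture was turned round, with 1 of 28 enterocyte markers, 12 of 12 crypt markers, 12 of 12 Paneth cell markers, 10 of 10 smooth muscle markers and 10 of 10 fibroblast markers above 0, against 49.7% of all genes. As Reg4 ran opposite to Reg3b (r = -0.81), leaning on dIEC replicate 1 and WT replicate 8, these counts are not a separate result. The summed crypt markers ran over 105 to 347 CPM in dIEC, lowest in replicate 1, and 269.7 to 341 CPM in WT. Their sum was 169 CPM in dIEC replicate 5, which had the most Reg4 of its group. How far the marker counts rest on single libraries was not tested. Of 12 tested enteroendocrine markers, 9 correlated above 0 with Reg4, at a median r of 0.15. Tuft cell markers did so in 7 of 9 cases (median r = 0.45) and goblet cell markers in 9 of 15 (median r = 0.17). All 28 enterocyte markers also lay higher in dIEC, with a median log2 fold change of 0.65, and all 10 fibroblast markers lay lower, with a median of -0.77. None of these was called by edgeR, DESeq2 or limma-voom, and at an unadjusted edgeR p under 0.05, 7 enterocyte markers were higher and 8 fibroblast markers lower in dIEC. Over all genes tested, 4.87% were higher and 5.79% lower by this measure, and 7767 lay above and 8144 below 0 of 15911. Of 9 tested T and innate lymphocyte markers, 7 correlated above 0 with Reg3b and 7 lay above 0 in log2 fold change (median 0.49), with 4 higher and 0 lower before adjustment. The summed level of all 14 listed lymphocyte markers was 88.9 CPM in dIEC replicate 1 and 76.2 CPM in dIEC replicate 11, against 49.9 to 51.7 CPM in the 3 other dIEC libraries and 42.3 to 56.7 CPM in WT. Ccl5, a chemokine of this list, had a log2 fold change of 1.24 ± 0.25 (edgeR adjusted p = 0.427) and was called by DESeq2, and its r with Reg3b was 0.79. The part of these lymphocyte markers in the Reg gene levels was not tested. The summed level of the 10 smooth muscle markers ran over 1324 to 3297 CPM in dIEC and 2345 to 4817 CPM in WT. Relative to the summed counts of the enterocyte list in the same library, the log2 difference of dIEC minus WT was 0.59 for Reg3b (two-sided exact permutation p = 0.117), 0.7 for Reg3g (exact p = 0.147), 0.54 for Reg3a (exact p = 0.312) and -1.63 for Reg4 (exact p = 0.117). Relative to epithelial content genes it was 1.1 for Reg3b (exact p = 0.0519), 1.21 for Reg3g (exact p = 0.0736), 1.04 for Reg3a (exact p = 0.152) and -1.12 for Reg4 (exact p = 0.156). The part of tissue composition in the levels of the Reg genes was not tested further. Of 18 pancreatic acinar markers, which were examined because several Reg genes are also made in pancreas, only Clps had enough counts to test.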

How the data were processed

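RNA of the distal ileum was sequenced for 5 dIEC and 6 WT mice. Per the labels' protocols, libraries were made with a directional kit. TopHat2 is the aligner and mm10 the build per the submitters' processing notes. Not given in the sources used here are the counting program, whether it used strand, the gene models and how multiply placed reads were handled. The values the authors deposited are whole-number read counts per gene without normalization. Of 31169 table entries, 1 named no gene (0.00778 to 0.0147% of counts) and was left out.

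Genes were filtered with filterByExpr, scaled with TMM factors and tested with edgeR 4.0.16 in R 4.3.3 (quasi-likelihood F test, robust, Benjamini-Hochberg over all 15911 genes, threshold 0.05). The script was tested on simulated data. Fold changes are dIEC against WT. Log2 CPM used a prior count of 2. Single values were tested by exact permutation, two-sided, over all assignments of the 11 libraries to groups of 5 and 6. The two-sided p was taken as double the smaller tail, a convention set after a first run that had counted absolute differences. Correlations used 100000 permutations, and ratios within a library added 1 to each count. DESeq2 1.42.0 and limma 3.58.1 (voom) served as alternatives. Exact binomial intervals of the per-library shares cover counting error only. Within-group pairs of libraries all differed by more than counting noise. Each library was taken as 1 mouse, so p-values reflect the spread between libraries, with cage, litter and batch unknown.

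The 4 genes and all gene lists were chosen with earlier results of these data known, so they are no independent evidence of a direction. Named genes are the members, the other Reg genes, for each list at most 6 measured genes of defining role or largest fold change, and the 5 genes most correlated with each member among genes with a mean log2 CPM of at least 3. Some lists share genes. Promoter sequences are from RefSeq (GRCm38.p6). Coordinates and coding sequences are from GENCODE vM21 (GRCm38).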

Additional observations from a re-analysis of the deposited data

How the results depend on the processing

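The log2 fold changes of the 4 Reg genes kept their direction in all 21 alternatives, and no alternative called any of them. Leaving out each library in turn gave 1.13 to 2 for Reg3a, 0.82 to 1.75 for Reg3b, 0.75 to 1.88 for Reg3g and -0.97 to -0.37 for Reg4. The number of genes called over the whole table was 1 in the reported analysis, 2 with scaling by library size alone, 11 by DESeq2, 7 without dIEC replicate 1 and WT replicate 8 together (chosen after seeing the data), and 1 to 319 when libraries were left out in turn, with 319 reached without WT replicate 8. Scaling by library size alone moved the median log2 fold change of all genes to -0.22, and the cause of the other shifts was not tested. The Reg3b difference in log2 CPM lost its unadjusted exact permutation p under 0.05 when splits were counted by absolute difference (1.37, p = 0.0519), with library size alone (1.14, p = 0.0649), on linear CPM (2470 CPM, p = 0.104), per epithelial content count (1.1, p = 0.0519) and per enterocyte count (0.595, p = 0.117). Counting by absolute difference was the convention of a first run, and the doubled tail that gives 0.0433 was adopted after seeing the data, as were both per-count ratios. With libraries left out in turn it ran over 1.07 to 1.7 and missed 0.05 without dIEC replicates 1, 6 or 11 or WT replicates 2, 4, 7 or 12. The Reg3g difference ran over 1.12 to 1.86 and passed without WT replicate 8 (1.86, exact permutation p = 0.0238). The log2 ratios of Reg3a to Reg3b (-0.23 to 0.14) and to Reg3g (-0.36 to 0.09) changed sign when libraries were left out. No paired analysis was possible because the labels name no pairs, and the replicate numbers are serial numbers of the libraries. Counts of 28 to 350 limit Reg3a.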
